A study of Oryza sativa Japonica Group with 6 samples.

Results

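The 73 genes described here are the auxin response, transport and conjugation genes expressed in rice shoots held at 3 temperatures. A locus was taken when its identifier was written LOC_Os, its deposited description named auxin, indole-3-acetic acid or IAA-amino acid hydrolase, and its level reached 1 RPKM in at least 2 of 6 libraries. RPKM counts reads per kilobase of gene, scaled to library size. These words matched 107 loci, of which 73 passed the level filter, among 19438 loci that passed it in the table of 55800. The 73 comprise 24 auxin response factors, 21 Aux/IAA proteins, 6 SAUR-type proteins, 8 transport genes, 5 GH3 conjugating enzymes, 6 conjugate hydrolases and 3 others. Plants were seedlings of Lijiangxintuanheigu (LTH), a japonica rice cultivar, 2 weeks old. RNA came from stems and leaves after 24 h at 11 °C, 13 °C or 25 °C, with 2 replicates per temperature. The 25 °C plants are the warm reference, and no genotype other than this single cultivar was used.

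Auxin (indole-3-acetic acid, IAA) is the growth hormone that sets cell elongation, vein patterning and shoot branching. It binds TIR1-type F-box receptors and the Aux/IAA repressors together, which marks the repressors for degradation. Auxin response factors (ARFs) bind DNA, and those held inactive by Aux/IAA proteins and their TOPLESS corepressors then act on their target genes. Among the targets are the SAUR genes, whose small proteins promote cell expansion, the Aux/IAA genes themselves, and GH3 genes. GH3 enzymes join IAA, or in some members jasmonate, to amino acids, and ILR1-like hydrolases release IAA from such conjugates. Carriers of the PIN (efflux) and AUX1/LAX (uptake) families move auxin between cells.

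Recovered library totals ranged from 15.96 to 18.75 M reads, so 1 read on a gene of 1 kb equals 0.0533 to 0.0626 RPKM. Read numbers were whole for all 73 members within a tolerance of 0.02. Replicate 2 gave the higher value for 63 of the 73 members at 11 °C, 57 at 13 °C and 50 at 25 °C, and over all loci tested for 76.0%, 79.7% and 65.3%. The leaf markers (Rubisco small subunit and chlorophyll a/b binding genes, 18 of 19 past the filter) were abundant in every library. Their summed level was 6686 to 8138 RPKM at 11 °C, 20569 to 21391 at 13 °C and 16981 to 23594 at 25 °C. A single Rubisco gene (LOC_Os12g17600) was the largest part of it, with means of 4123, 10044 and 4230 RPKM. By gene, 14 of the 18 fell and 1 rose at 11 against 25 °C, and 9 fell and 4 rose at 13 against 25 °C. Of the root markers, RCc3 had 0 RPKM in all libraries but replicate 2 at 11 °C (0.127), and OsLsi1 had 0.668 to 0.814 RPKM at 11 °C, 10.9 to 11.9 at 13 °C and 12.9 to 18.1 at 25 °C. OsLsi1 fell at 11 °C (-3.23 ± 0.26, limma adjusted p = 5.83e-05). Leaf markers thus moved at both low temperatures and OsLsi1 at 11 °C, and their part in the changes of the auxin genes was not tested. In whole shoots, fewer cells of a type and less RNA per cell cannot be told apart, and a difference in collection time of day cannot be told apart from temperature, since times are not given.

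Auxin genes changed in both directions at each low temperature. Against 25 °C, 22 of 73 members rose at 11 °C, 19 fell and 32 did not pass (limma, Benjamini-Hochberg adjusted p below 0.05 over all 19438 loci). That is 56.2% of the members against 50% of all loci tested (28.6% higher and 21.4% lower). At 13 °C, 13 rose, 15 fell and 45 did not pass, 38.4% against 43.3% of all loci (26.3% higher and 17% lower). The direct comparison of the cold groups had 20 members higher at 11 °C, 17 lower and 36 not passed, 50.7% against 35.4% of all loci (17.2% higher and 18.2% lower). The median log2 difference over members was 0.21, -0.02 and 0.13 in these comparisons, beside 0.13, 0.12 and -0.02 over all loci. Of the calls, 25 of 41, 20 of 28 and 16 of 37 held with each of the 6 libraries removed in turn. Without the second 11 °C library there were 21 members called between 11 and 13 °C, and without the first or second 13 °C library 23 and 22. The other settings tried kept 29, 20 and 23 of these calls, and a further 7, 4 and 5 were on members that the filter of 4 libraries left untested. Calls these settings ended at 11 °C were those of ARF19, ARF25, GH3.3, GH3.7, IAA9, PIN3a and LOC_Os02g05050. At 13 °C they ended those of ARF1, the ARF12 locus LOC_Os04g57610, IAA25 and LOC_Os09g37480. Between 11 and 13 °C they ended those of ARF1, ARF5, ARF10, the ARF12 locus LOC_Os02g46710, ARF15, IAA15, IAA16, ILL6, ILL7, ILL9 and AXR4. Each change is given as the log2 difference of RPKM + 1 with its standard error, folds are ratios of mean RPKM, and levels are mean RPKM ± SD with n = 2. No fold is given where a library in a group holds 3 reads or fewer. The comparisons against 25 °C share the 25 °C libraries. Scaling the libraries by median ratios moved the median of all loci from 0.13 to 0.01 at 11 °C and from 0.12 to -0.01 at 13 °C, and quantile scaling took the share of higher loci among those called at 13 °C from 60.8% to 49.9%.

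**Figure D1:**
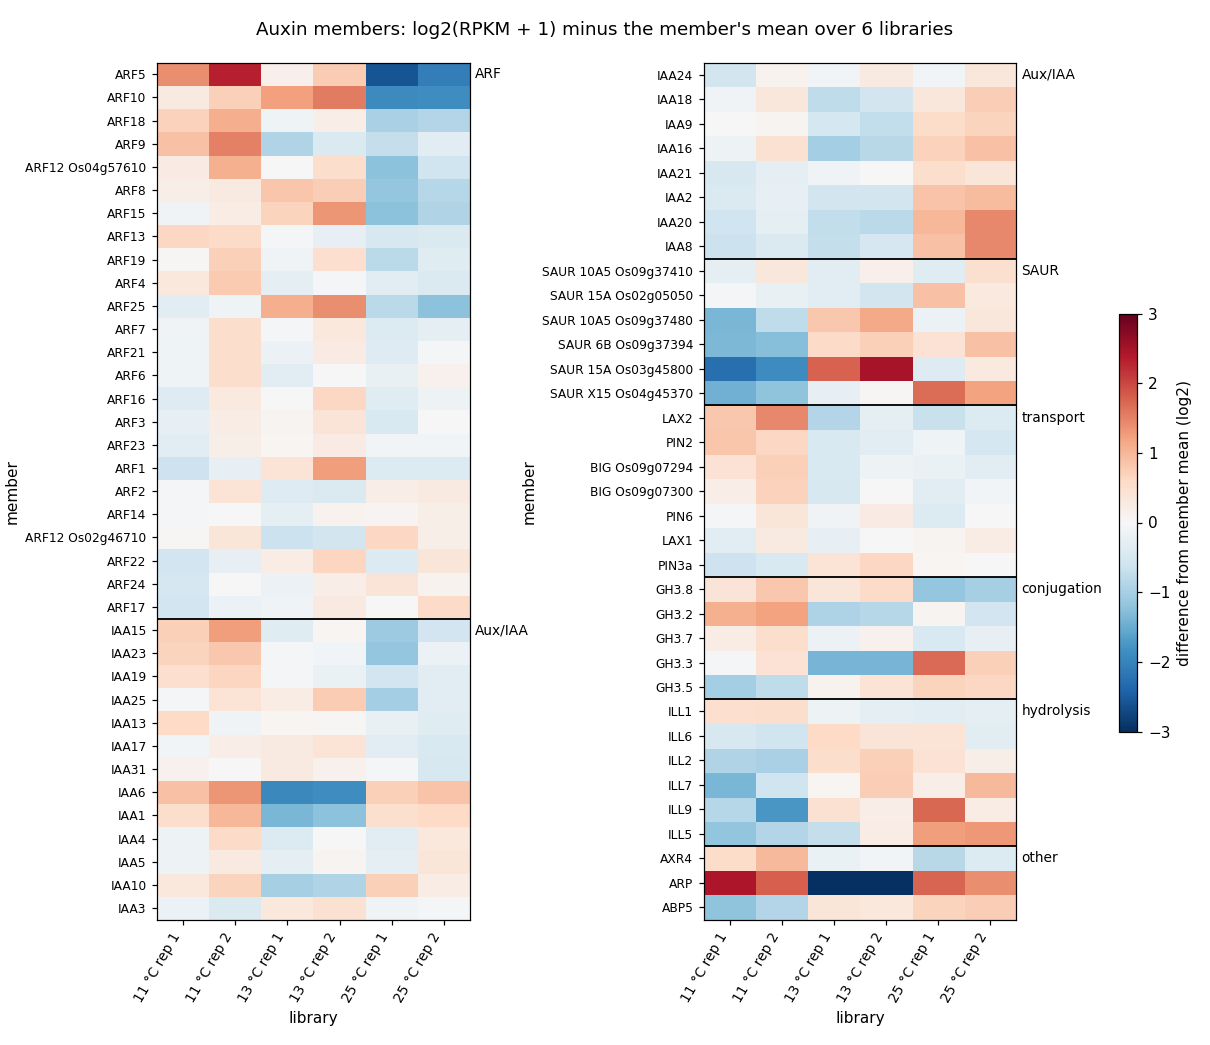
Difference of log2(RPKM + 1) from each member's mean over the 6 libraries, for 72 members (rows, grouped by role class) and libraries (columns); colours saturate at 3. ARP is the auxin-repressed gene and ABP5 the auxin-binding protein gene. ARF rows are mostly blue at 25 °C, SAUR rows mostly blue at 11 °C, and IAA1, IAA6, IAA10 and ARP are blue in both 13 °C libraries.

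Auxin response factor genes rose or did not pass at 11 °C. Of 24 members, 11 rose, 13 did not pass and none fell by limma, with 0 falls at an unadjusted p below 0.05. That is 45.8% called beside 50% of all loci (28.6% higher and 21.4% lower). The median log2 difference was 0.50 beside 0.13 over all loci. ARF13 reached 1 RPKM only at 11 °C, and the other 23 members had 10 rises and 0 falls. Under median-ratio or quantile scaling of all 24, 11 rose and 2 fell (ARF17 and ARF24). At 13 °C, 8 rose, 1 fell and 15 did not pass, 37.5% called beside 43.3% of all loci (median 0.45 beside 0.12). Between the cold groups, 5 were higher at 11 °C, 4 were lower and 15 did not pass, 37.5% called beside 35.4%. Of these calls, those of ARF9 and ARF25 held with each library removed in turn. Those of ARF1, ARF5, ARF10, ARF13, ARF15, ARF18 and the ARF12 locus LOC_Os02g46710 did not. The summed level of the class was 739 and 1079 RPKM at 11 °C, 615 and 778 at 13 °C, versus 546 and 542 at 25 °C. All 4 libraries from the cold lie above both from 25 °C.

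ARF5 (LOC_Os02g04810, chromosome 2, 2207419 to 2214632 as the table gives it) had the largest log2 rise of any member at 11 °C. Its level was 53.0 and 103 RPKM at 11 °C, 21.7 and 34.0 at 13 °C, versus 2.38 and 3.89 at 25 °C. The 3 groups do not overlap, with 11 °C highest and 25 °C lowest. ARF5 rose 24.9-fold at 11 °C (4.20 ± 0.37, adjusted p = 9.00e-05) and 8.88-fold at 13 °C (2.79 ± 0.37, adjusted p = 0.00071). The step from 13 to 11 °C was 1.41 (adjusted p = 0.021) and did not pass without replicate 2 at 11 °C (adjusted p = 0.128) or replicate 1 at 13 °C (adjusted p = 0.112). ARF5 shares 795 bases of its span with LOC_Os02g04800 (described as AIG2) on the other strand, which had 2.73 to 6.45 RPKM in all libraries.

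ARF10 (LOC_Os04g43910), ARF18 (LOC_Os06g47150) and ARF8 (LOC_Os02g41800) belong to the rice ARFs whose transcripts are cut by miR160. ARF10 had 4.15 and 5.91 RPKM at 11 °C, 9.01 and 11.5 at 13 °C, versus 0.121 and 0.169 at 25 °C, where these values stand for 5 and 8 reads. It was therefore nearly silent in the warm and highest at 13 °C, with no overlap between groups. The rise was 2.38 ± 0.26 at 11 °C (34.6-fold, adjusted p = 0.000216) and 3.29 ± 0.26 at 13 °C (70.5-fold, adjusted p = 6.82e-05). ARF18 had 24.6 and 32.6 RPKM at 11 °C, 13.5 and 17.0 at 13 °C, versus 7.08 and 7.55 at 25 °C. Unlike ARF10, it was highest at 11 °C, 3.91-fold above 25 °C (1.82 ± 0.24, adjusted p = 0.000589). Its rise at 13 °C (0.96 ± 0.24, adjusted p = 0.0142) did not pass without replicate 2 at 13 °C (adjusted p = 0.105) or replicate 1 at 25 °C (adjusted p = 0.0618). ARF8 rose 2.6-fold at 11 °C and 3.92-fold at 13 °C, to 13.2 ± 0.756 and 19.9 ± 0.812 RPKM from 5.09 ± 0.900. ARF22 (LOC_Os10g33940), another target of that microRNA, had 5.02 ± 1.00, 9.82 ± 2.23 and 7.14 ± 3.04 RPKM at 11, 13 and 25 °C and passed in no comparison.

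Among the ARFs whose transcripts are cut by miR167 (ARF6, ARF12, ARF17 and ARF25), ARF25 differed most between temperatures. ARF25 (LOC_Os12g41950) had 3.04 and 3.62 RPKM at 11 °C, 9.72 and 12.4 at 13 °C, versus 1.87 and 1.17 at 25 °C. It was highest at 13 °C, 7.28-fold above 25 °C (2.26 ± 0.26, adjusted p = 0.000386) and 3.32-fold above 11 °C (-1.47 ± 0.26, adjusted p = 0.00414). Its smaller rise at 11 °C (0.79 ± 0.26, adjusted p = 0.0365) did not pass without replicate 1 (adjusted p = 0.0832) or 2 (0.171) at 11 °C or replicate 2 at 25 °C (0.179). The ARF12 locus LOC_Os04g57610 rose at 11 °C (1.57 ± 0.37, adjusted p = 0.00893), a call lost without replicate 2 at 11 °C (adjusted p = 0.0625) or replicate 1 at 25 °C (0.0615). A second locus described as ARF12, LOC_Os02g46710, had 55.6 ± 9.54, 31.4 ± 1.66 and 63.9 ± 14.1 RPKM. It was the ARF that fell at 13 °C (-0.99 ± 0.24, adjusted p = 0.0118), a call lost without replicate 1 at 13 °C (adjusted p = 0.066) or replicate 1 at 25 °C (0.0623). ARF6 and ARF17 passed in no comparison, with log2 differences of 0.24 and -0.66 at 11 °C.

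ARF9 and ARF4 stood higher at 11 °C than in either other group. ARF9 (LOC_Os04g36054, chromosome 4, 22006216 to 22012023) had 81.6 and 126 RPKM at 11 °C, 22.9 and 32 at 13 °C, versus 26.5 and 34.5 at 25 °C. The 13 and 25 °C values overlap, while both at 11 °C lie above them. ARF9 was 3.40-fold above 25 °C (1.71 ± 0.29, adjusted p = 0.00184) and 3.78-fold above 13 °C (1.86 ± 0.29, adjusted p = 0.00218); its 13 °C level did not differ detectably from 25 °C (-0.15 ± 0.29). ARF4 (LOC_Os01g70270), the most abundant ARF at every temperature, had 265 and 370 RPKM at 11 °C, 177 and 210 at 13 °C, versus 169 and 159 at 25 °C. It held 34.9% of the summed ARF level at 11 °C, 27.8% at 13 °C and 30.1% at 25 °C. Its rise at 11 °C (0.93 ± 0.24, adjusted p = 0.0142) did not pass without replicate 2 at 11 °C (adjusted p = 0.121). Its difference between 11 and 13 °C did not pass (0.70 ± 0.24, adjusted p = 0.0573). The next most abundant, ARF23 (LOC_Os11g32110), had 107 ± 27.6, 124 ± 12.1 and 106 ± 0.167 RPKM and passed in no comparison.

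ARF15 and ARF1 were highest at 13 °C. ARF15 (LOC_Os05g48870) had 29.8 and 37.4 RPKM at 11 °C, 51.6 and 81.7 at 13 °C, versus 12.9 and 16.7 at 25 °C, with no overlap between groups. It rose 4.50-fold at 13 °C (2.07 ± 0.28, adjusted p = 0.000767) and 2.27-fold at 11 °C (1.13 ± 0.28, adjusted p = 0.0112). The latter did not pass without replicate 2 at 11 °C (adjusted p = 0.070) or replicate 1 at 25 °C (adjusted p = 0.0627). ARF1 (LOC_Os01g13520) had 5.70 ± 2.70 RPKM at 13 °C beside 1.69 ± 0.00657 at 25 °C (1.26 ± 0.32, adjusted p = 0.0136), a call lost without replicate 2 at 13 °C (adjusted p = 0.0796) or either 25 °C library (0.0611 and 0.0572). The lowest ARF, ARF13 (LOC_Os04g59430), had 41 and 43 reads at 11 °C, 13 and 7 at 13 °C, versus 0 and 1 at 25 °C. It entered the set through the 11 °C libraries alone, where it was higher (1.06 ± 0.16, adjusted p = 0.00111). ARF19 (LOC_Os06g48950) rose by 0.95 at 11 °C (adjusted p = 0.0495), a call lost without replicate 2 at 11 °C or either 25 °C library (adjusted p = 0.275, 0.220 and 0.0685). ARF2, ARF3, ARF7, ARF14, ARF16, ARF21 and ARF24 passed in no comparison, with log2 differences at 11 °C between -0.49 (ARF24) and 0.56 (ARF7).

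**Figure D2:**
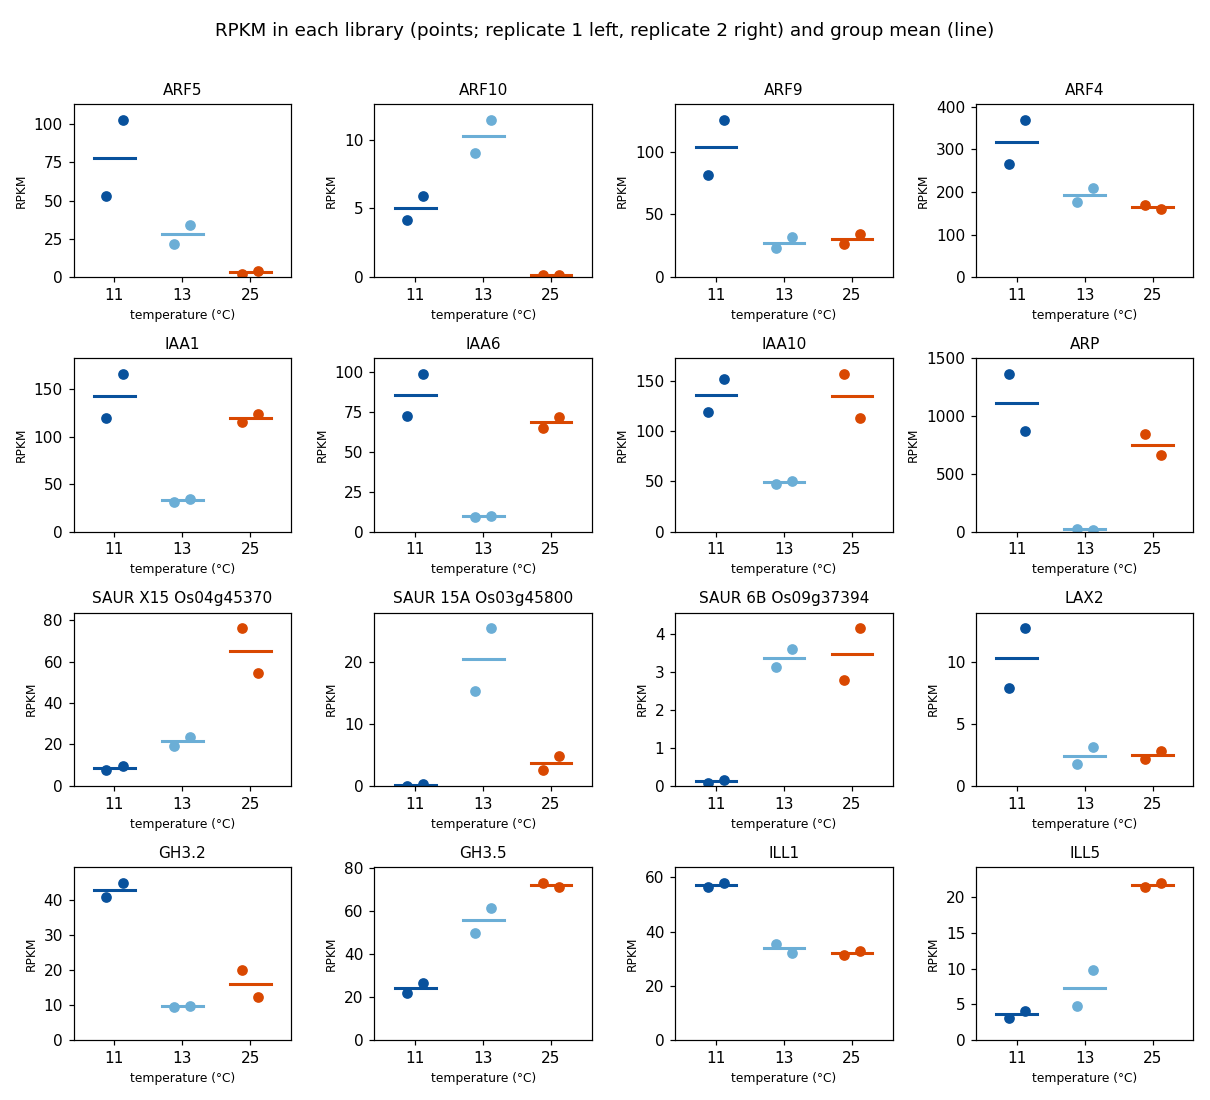
RPKM in each library for 16 members (points, replicate 1 left and replicate 2 right; lines are means of 2; each y axis starts at 0) at 11, 13 and 25 °C. ARF5 and ARF10 are near 0 at 25 °C, IAA1, IAA6, IAA10 and ARP (the auxin-repressed gene) are low in both 13 °C libraries, and the 3 SAUR-type genes and ILL5 are low at 11 °C.

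Aux/IAA genes fell more often than they rose at 13 °C. Among 21 members there were 9 falls, 2 rises and 10 that did not pass, with a median of -0.21 beside 0.12 over all loci. That is 52.4% called beside 43.3% of all loci (26.3% higher and 17% lower). Of the falls, 3 are members that reached 1 RPKM only at 25 °C, and the other 18 members had 6 falls and 2 rises. At 11 °C, 3 rose, 5 fell and 13 did not pass, 38.1% called beside 50% of all loci. The median was 0.03 beside 0.13, and -0.12 under median-ratio scaling. Without those 3 members there were 3 rises and 2 falls. In the direct comparison, 7 were higher at 11 than at 13 °C, 1 was lower and 13 did not pass (median 0.33 beside -0.02). That is 38.1% called beside 35.4% of all loci. Without the 3 members that reached 1 RPKM only at 25 °C, 6 were higher and 1 was lower. Of these calls, those of IAA1, IAA6 and IAA10 held with each library removed in turn. Those of IAA3, IAA9, IAA15, IAA16 and IAA19 did not. The summed level was 626 and 808 RPKM at 11 °C, 389 and 443 at 13 °C, versus 588 and 615 at 25 °C. Both 13 °C sums lie below all 4 others.

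The 3 most abundant Aux/IAA genes in the warm, IAA10, IAA1 and IAA6, were each low at 13 °C and near their warm level at 11 °C. IAA6 (LOC_Os01g53880, chromosome 1, 30975765 to 30979770), linked in rice to drought tolerance and tiller outgrowth, had 72.6 and 98.7 RPKM at 11 °C, 9.38 and 10.04 at 13 °C, versus 64.9 and 71.7 at 25 °C. It was 7.04-fold lower at 13 than at 25 °C (-2.69 ± 0.23, adjusted p = 8.95e-05) and 8.82-fold higher at 11 than at 13 °C (3.0 ± 0.23, adjusted p = 0.00014). Its 11 °C level did not differ detectably from 25 °C (0.31 ± 0.23, adjusted p = 0.290). IAA1 (LOC_Os01g08320, chromosome 1, 4073676 to 4076438), which responds to auxin and brassinosteroid in rice, had 120 and 166 RPKM at 11 °C, 31.3 and 34.6 at 13 °C, versus 115 and 124 at 25 °C. Both 13 °C values again lie below all others, 3.64-fold under 25 °C (-1.83 ± 0.23, adjusted p = 0.000537) and 4.35-fold under 11 °C (2.07 ± 0.23, adjusted p = 0.000526). IAA10 (LOC_Os02g57250), the Aux/IAA with the highest mean over all libraries, had 119 and 153 RPKM at 11 °C, 47.7 and 50.6 at 13 °C, versus 157 and 113 at 25 °C. It fell 2.75-fold at 13 °C (-1.42 ± 0.24, adjusted p = 0.00237), and its 11 and 25 °C values overlap (0.02 ± 0.24). At 13 °C the most abundant Aux/IAA was IAA17 (LOC_Os05g14180) at 91.5 ± 6.47 RPKM, 22.0% of the class.

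Several Aux/IAA genes of low abundance were lower in the cold. IAA20, IAA8 and IAA9 entered the set only through the 25 °C libraries, so a lower value in the cold is favoured by the filter and their values are given as a description. IAA20 (LOC_Os06g07040) had 45 and 76 reads at 25 °C, 4 and 10 at 11 °C, versus 2 and 1 at 13 °C, with lower values at both low temperatures (-1.66 ± 0.22 and -1.99 ± 0.22, adjusted p = 0.000525 and 0.000289). IAA8 (LOC_Os02g49160) had 32 and 64 reads at 25 °C and at most 4 in any library from the cold (-1.70 and -1.78, adjusted p = 0.000628 and 0.000624). IAA2 (LOC_Os01g09450) fell from 7.27 ± 0.376 RPKM to 2.54 ± 0.317 at 11 °C and 2.03 ± 0.0148 at 13 °C. These 3 were low at both cold temperatures and did not pass between them. IAA16 (LOC_Os05g09480) was 12.1-fold lower at 13 than at 25 °C (-1.71 ± 0.25, adjusted p = 0.00114), while its difference at 11 °C did not pass (-0.64 ± 0.25, adjusted p = 0.0675). IAA18 (LOC_Os05g44810) fell at 13 °C (-1.19 ± 0.26, adjusted p = 0.00797; 0.0509 without replicate 1 at 13 °C). IAA9 (LOC_Os02g56120) was lower at 13 °C (-1.24 ± 0.18, adjusted p = 0.00102). Its difference at 11 °C (-0.57, adjusted p = 0.0287) did not pass without replicate 1 (adjusted p = 0.111) or 2 (0.0733) at 11 °C or replicate 2 at 25 °C (0.0821). IAA21 (LOC_Os06g22870) fell by 0.82 at 11 °C (adjusted p = 0.014), a call lost without replicate 1 at 11 °C (adjusted p = 0.0887) or replicate 1 at 25 °C (0.0672).

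A further set of Aux/IAA genes was highest at 11 °C. IAA15 (LOC_Os05g08570) rose 3.68-fold to 56.3 ± 15.3 RPKM (adjusted p = 0.00152), IAA19 (LOC_Os05g48590) 2.07-fold to 62.2 ± 4.23 RPKM (adjusted p = 0.00427) and IAA23 (LOC_Os06g39590) 3.22-fold to 7.18 ± 0.580 RPKM (adjusted p = 0.00887), all by limma. IAA23 is known in rice for upkeep of the root quiescent centre. At 13 °C none of these 3 passed against 25 °C (0.67, 0.34 and 0.60). Directly against 13 °C, IAA15 (1.14, adjusted p = 0.019) and IAA19 (0.69, 0.0338) were higher at 11 °C, and IAA23 did not pass (0.82, 0.0922). That call of IAA15 was lost without replicate 2 at 11 °C (0.122) or replicate 1 at 13 °C (0.110). That of IAA19 was lost when any single library of either cold group was left out (0.0973 to 0.179). The 2 members that rose at 13 °C were IAA17 (0.75, adjusted p = 0.0201) and IAA25 (LOC_Os08g01780, 1.16, adjusted p = 0.0222). Both calls were lost without replicate 2 at 13 °C (adjusted p = 0.129 and 0.135); that of IAA17 also without replicate 1 at 13 °C (0.072) or replicate 2 at 25 °C (0.0594), and that of IAA25 without replicate 1 at 25 °C (0.129). IAA3 (LOC_Os01g13030) was the member lower at 11 than at 13 °C (-0.69, adjusted p = 0.0356), a call lost when any single library of either cold group was left out (adjusted p = 0.0754 to 0.199). IAA4, IAA5, IAA13, IAA24 and IAA31 passed in no comparison. IAA5 shares 31 bases with a NAC gene and IAA13 shares 1474 bases with a sec23 gene on the opposite strand.

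SAUR-type genes were lower at 11 °C than at 25 °C. Of the 6 members, all named after soybean SAUR proteins, 5 fell, 1 did not pass and none rose by limma. At an unadjusted p below 0.05, 0 rose as well. That is 83.3% called beside 50% of all loci (28.6% higher and 21.4% lower). The median was -1.56 beside 0.13 over all loci. LOC_Os02g05050 reached 1 RPKM only at 25 °C, and the other 5 members had 4 falls and 0 rises at 11 °C. Of all 6, 2 rose, 2 fell and 2 did not pass at 13 °C (2 rises and 1 fall without LOC_Os02g05050). That is 66.7% called beside 43.3% of all loci. Against 13 °C, 4 were lower at 11 °C, 2 did not pass and 0 were higher (0 at an unadjusted p below 0.05). There, 66.7% were called beside 35.4% of all loci. Their summed level was 11.4 and 15.6 RPKM at 11 °C, 48.3 and 66.7 at 13 °C, versus 88.9 and 74.1 at 25 °C, so the groups do not overlap. LOC_Os04g45370 (described as auxin-induced protein X15, chromosome 4, 26831005 to 26831867) held 80.2% of that sum at 25 °C. It had 7.83 and 9.45 RPKM at 11 °C, 19.2 and 23.8 at 13 °C, versus 76.1 and 54.6 at 25 °C. This gene fell in steps with temperature, 7.56-fold at 11 °C (-2.77 ± 0.25, adjusted p = 9.73e-05) and 3.04-fold at 13 °C (-1.55 ± 0.25, adjusted p = 0.00175). The step from 13 to 11 °C (-1.22 ± 0.25, adjusted p = 0.00746) did not pass without replicate 2 at 13 °C (adjusted p = 0.0543).

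LOC_Os03g45800 (described as 15A, chromosome 3, 25866208 to 25866564) moved in opposite directions at the 2 low temperatures. It had 0 and 2 reads at 11 °C, 93 and 170 at 13 °C, versus 15 and 32 at 25 °C, or 0 and 0.299, 15.4 and 25.4, and 2.63 and 4.88 RPKM. Both 11 °C libraries lie below all others and both 13 °C libraries above them. It rose 5.42-fold at 13 °C (2.17 ± 0.35, adjusted p = 0.00165), fell at 11 °C (-2.02 ± 0.35, adjusted p = 0.00199), and was lower at 11 than at 13 °C (-4.19, adjusted p = 0.000184). LOC_Os09g37394 (described as 6B) had 1 and 2 reads at 11 °C, 37 and 47 at 13 °C, versus 31 and 53 at 25 °C. It was low at 11 °C alone (-1.98 ± 0.23, adjusted p = 0.000312 against 25 °C; -1.96 ± 0.23, adjusted p = 0.000681 against 13 °C; -0.02 ± 0.23 between 13 and 25 °C). It lies in a chromosome 9 cluster with LOC_Os09g37410 and LOC_Os09g37480, both described as 10A5, with gaps of 5753 and 12028 bases between members. These neighbours differed: LOC_Os09g37410 passed in no comparison (-0.02 ± 0.35 at 11 °C), whereas LOC_Os09g37480 was 5.86-fold lower at 11 than at 13 °C (-2.04 ± 0.31, adjusted p = 0.00205). LOC_Os02g05050 (also 15A) had 12 and 7 reads at 25 °C and at most 4 elsewhere. It entered the set through 25 °C alone, and its difference at 13 °C was -1.03 (adjusted p = 0.00841). That at 11 °C (-0.70, adjusted p = 0.0353) did not pass without replicate 1 (adjusted p = 0.0602) or 2 (0.144) at 11 °C or replicate 1 at 25 °C (0.146).

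Some transport genes differed at 11 °C, and none was called at 13 °C. Of 8 members, 3 rose, 2 fell and 3 did not pass at 11 °C, 62.5% called beside 50% of all loci. At 13 against 25 °C, 0 of 8 were called by limma, beside 43.3% of all loci (1 at an unadjusted p below 0.05). Between 11 and 13 °C, 3 were higher and 2 lower at 11 °C, 62.5% called beside 35.4%. LOC_Os05g10625 reached 1 RPKM at 11 °C alone. The other 7 members had 2 rises and 2 falls at 11 against 25 °C, and 2 were higher and 2 lower at 11 than at 13 °C. LAX2 (LOC_Os05g37470), an uptake carrier of the AUX1/LAX family, had 7.95 and 12.8 RPKM at 11 °C, 1.77 and 3.13 at 13 °C, versus 2.21 and 2.80 at 25 °C. The 13 and 25 °C values overlap and the 11 °C values lie above them, 4.13-fold over 25 °C (1.67 ± 0.32, adjusted p = 0.00319) and 4.23-fold over 13 °C (1.71 ± 0.32, adjusted p = 0.0047). Its relative LAX1 (LOC_Os01g63770) had 8.78 ± 2.79, 8.02 ± 1.01 and 9.89 ± 0.782 RPKM and passed in no comparison.

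The efflux carriers named here differed in pattern. LOC_Os05g10625, a span of 1263 bases described as PIN2, reached 1 RPKM at 11 °C alone, so a higher value there is favoured by the filter. It had 41 and 36 reads at 11 °C, 4 and 7 at 13 °C, versus 10 and 3 at 25 °C (1.06 ± 0.20, adjusted p = 0.00323 against 25 °C). PIN3a (LOC_Os01g45550) had 0.437 ± 0.119, 2.0 ± 0.321 and 1.12 ± 0.0793 RPKM. It was 4.57-fold lower at 11 than at 13 °C (-1.06 ± 0.19, adjusted p = 0.00446), and its fall against 25 °C (-0.56, adjusted p = 0.0408) was lost when any single library of either group was left out (0.0814 to 0.183). PIN6 (LOC_Os01g69070), with 62.0 ± 13.0, 58.0 ± 10.4 and 47.6 ± 9.52 RPKM, passed in no comparison; it shares 2127 bases with a gene on the opposite strand. BIG, a very large protein needed for polar auxin transport in Arabidopsis, is represented by 2 loci 316 bases apart on the same strand. LOC_Os09g07294 had 73.2 and 88.3 RPKM at 11 °C, 38.6 and 47.9 at 13 °C, versus 46.7 and 42.8 at 25 °C, and LOC_Os09g07300 had 7.09 ± 1.90, 4.01 ± 1.14 and 4.15 ± 0.576. Their log2 differences at 11 °C were alike in sign, 0.83 (adjusted p = 0.0144) and 0.64, of which the second did not pass. The first did not pass without replicate 2 at 11 °C (adjusted p = 0.103) or replicate 2 at 25 °C (0.0521).

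**Figure D3:**
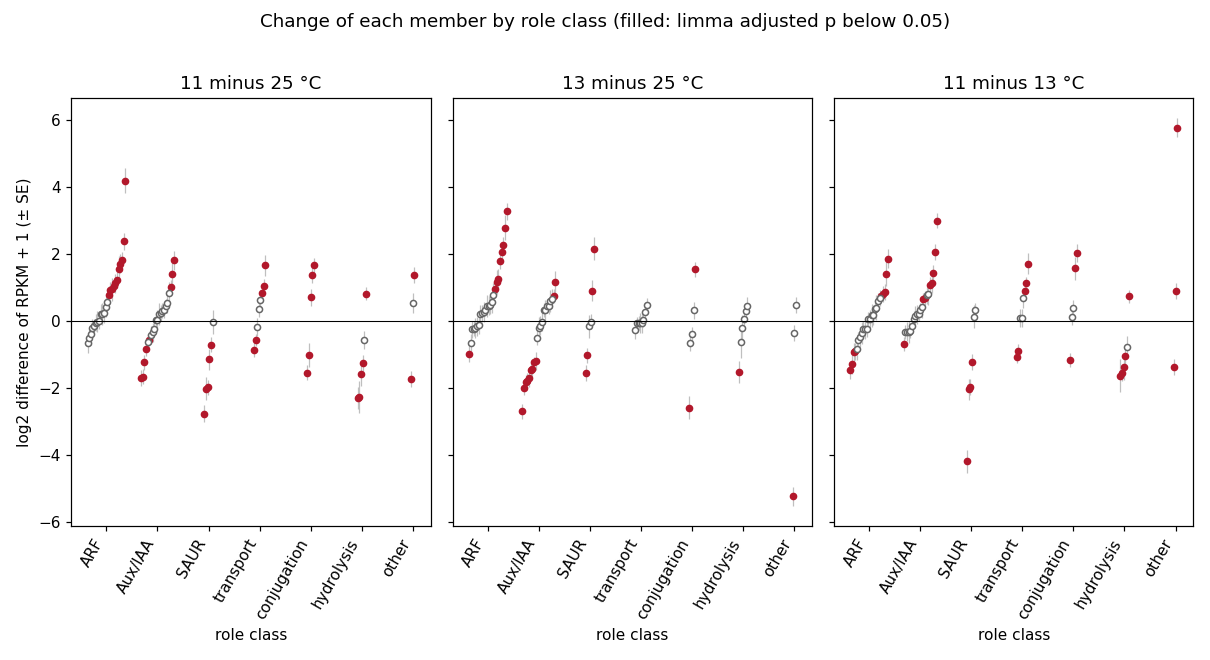
Log2 difference of RPKM + 1 (points) with its standard error (bars) for every member, by role class (x axis), in each comparison; filled points passed limma's adjusted p below 0.05. At 11 against 25 °C, 11 ARFs are filled above 0 and 5 SAUR-type genes below it, and at 13 against 25 °C 0 of 8 transport genes are filled.

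All 5 GH3 genes were called at 11 °C, 3 up and 2 down, where 50% of all loci were called; the calls of GH3.3 and GH3.7 were lost on leaving out most single libraries. The most abundant GH3 gene differed between temperatures. GH3.2 (LOC_Os01g55940, chromosome 1, 32221376 to 32225123), an IAA-conjugating enzyme whose overexpression lowers free IAA in rice, had 40.8 and 44.9 RPKM at 11 °C, 9.5 and 9.88 at 13 °C, versus 20.0 and 12.3 at 25 °C. The groups do not overlap: it was 2.65-fold above 25 °C at 11 °C (1.39 ± 0.26, adjusted p = 0.00315) and 4.42-fold above 13 °C (2.03 ± 0.26, adjusted p = 0.00101). GH3.5 (LOC_Os05g50890), also known as OsJAR1, which conjugates jasmonate to isoleucine, had 22.1 and 26.6 RPKM at 11 °C, 50.0 and 61.6 at 13 °C, versus 73.3 and 71.5 at 25 °C. It fell 2.97-fold at 11 °C (-1.54 ± 0.22, adjusted p = 0.000738), and its 13 °C difference did not pass (-0.38 ± 0.22). GH3.5 thus held 72.0% of the summed GH3 level at 25 °C and 77.7% at 13 °C, and GH3.2 held 54.6% at 11 °C.

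The remaining GH3 genes were less abundant. GH3.8 (LOC_Os07g40290), an IAA-aspartate synthetase with a role in disease resistance, had 82 and 137 reads at 11 °C, 81 and 110 at 13 °C, versus 2 and 8 at 25 °C. It rose alike at both low temperatures (1.67 ± 0.23 and 1.55 ± 0.23, adjusted p = 0.000635 and 0.00109), and the direct difference was 0.12 ± 0.23. GH3.3 (LOC_Os01g12160), also called OsJAR2, had 12.7 and 5.96 RPKM at 25 °C, 3.09 and 4.72 at 11 °C, versus 0.624 and 0.628 at 13 °C. It fell 14.9-fold at 13 °C (-2.59 ± 0.35, adjusted p = 0.000777). Its fall at 11 °C (-1.02 ± 0.35, adjusted p = 0.0429) did not pass without any of the libraries except replicate 2 at 25 °C (0.0557 to 0.216). GH3.7 (LOC_Os06g30440) rose by 0.71 at 11 °C (adjusted p = 0.0468), a call that did not pass when any single library was left out (0.0674 to 0.232).

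Conjugate hydrolase genes mostly fell at 11 °C. Of 6 ILR1-like (ILL) members, 4 fell, 1 rose and 1 did not pass (median -1.41 beside 0.13 over all loci). That is 83.3% called beside 50% of all loci. At 13 °C 1 fell and 5 did not pass, 16.7% called beside 43.3%. Between the cold groups, 4 were lower at 11 °C, 1 was higher and 1 did not pass, 83.3% called beside 35.4%. Of these calls, that of ILL2 held with each library removed in turn, and those of ILL1, ILL6, ILL7 and ILL9 did not. The summed level of the class was 95.8 and 99.0 RPKM at 11 °C, 140 and 157 at 13 °C, versus 229 and 180 at 25 °C, without overlap. ILL5 (LOC_Os04g44110) had 3.12 and 4.08 RPKM at 11 °C, 4.74 and 9.83 at 13 °C, versus 21.4 and 22.0 at 25 °C. It fell 6.02-fold at 11 °C and 2.98-fold at 13 °C (-1.52 ± 0.33, adjusted p = 0.00673), the single hydrolase called at 13 °C. ILL2 (LOC_Os01g51060) was low at 11 °C alone, with 1.40 ± 0.0962 RPKM beside 6.06 ± 0.594 at 13 °C and 4.71 ± 0.725 at 25 °C (-1.24 ± 0.24, adjusted p = 0.00325 against 25 °C; -1.55 ± 0.24, adjusted p = 0.00204 against 13 °C).

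ILL1 (LOC_Os01g37960) was the hydrolase gene that rose. It had 56.3 and 58.0 RPKM at 11 °C, 35.6 and 32.1 at 13 °C, versus 31.5 and 32.7 at 25 °C (0.81 ± 0.20, adjusted p = 0.010; 0.0615 without replicate 2 at 11 °C). It was the most abundant member at 11 °C, with 58.7% of the class. At 13 and 25 °C the order of ILL7 and ILL9 differed between the 2 libraries. ILL9 (LOC_Os07g14610) had 20.4 and 10.5 RPKM at 11 °C, 52.4 and 43.2 at 13 °C, versus 126 and 43.8 at 25 °C. Its 25 °C libraries are far apart, yet both 11 °C values lie below all others (-2.26 ± 0.49, adjusted p = 0.00574). ILL7 (LOC_Os07g14590), 9300 bases from ILL9 on the same strand, fell 3.09-fold from 60.3 ± 22.7 to 19.5 ± 7.59 RPKM (-1.58 ± 0.38, adjusted p = 0.00932), a call lost without replicate 1 at 11 °C (adjusted p = 0.0551) or replicate 2 at 25 °C (0.0601). Reads of such neighbours may be shared if their sequences are alike, which was not tested. ILL6 (LOC_Os06g47620) was lower at 11 than at 13 °C (-1.03, adjusted p = 0.0173), a call lost without replicate 2 at 11 °C (adjusted p = 0.0788) or replicate 1 at 13 °C (0.0684).

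**Figure D4:**
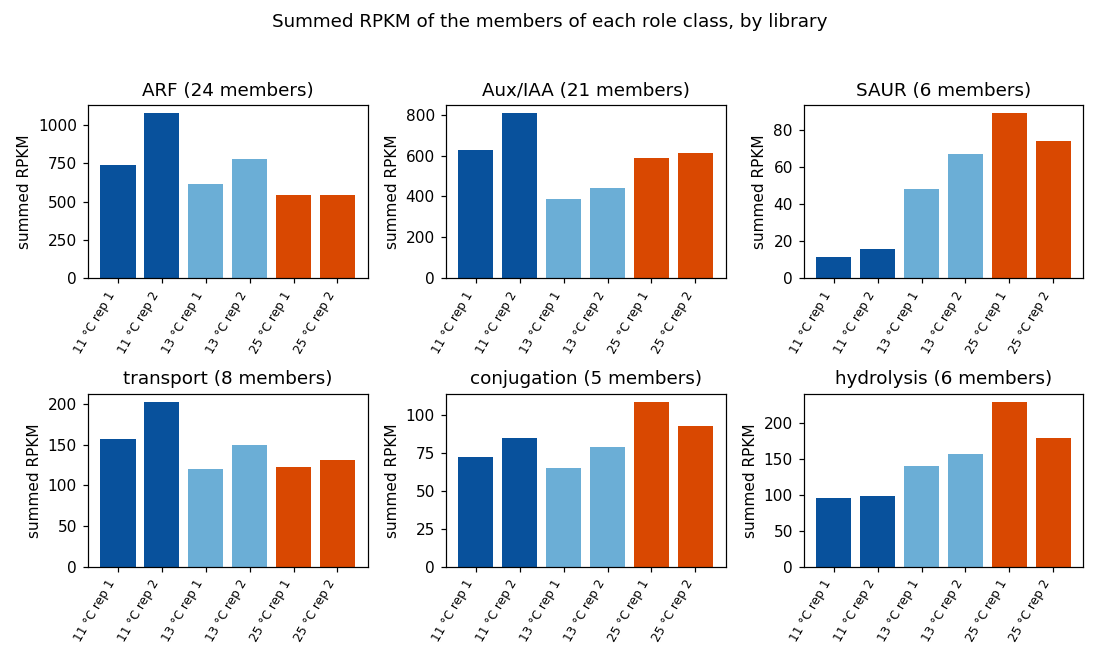
Summed RPKM of the members of 6 role classes (bars, axes from 0) in each library. The SAUR-type sum rises from 11.4 and 15.6 at 11 °C to 88.9 and 74.1 at 25 °C, the hydrolase sum from 95.8 and 99.0 to 229 and 180, and the Aux/IAA sum is lowest at 13 °C (389 and 443).

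The most abundant member of all, LOC_Os11g44810 (chromosome 11, 27116364 to 27118009), is described as an auxin-repressed protein of strawberry, a family known in dicots as a marker of dormant buds. It had 1365 and 870 RPKM at 11 °C, 21.7 and 16.2 at 13 °C, versus 843 and 661 at 25 °C, or 28192 and 19786, 447 and 368, and 16329 and 14708 reads. Both 13 °C libraries lie far below the other 4, 39.7-fold under 25 °C (-5.24 ± 0.30, adjusted p = 2.23e-05) and 59.0-fold under 11 °C (5.79 ± 0.30, adjusted p = 4.89e-05). At 11 °C it did not differ detectably from 25 °C (0.55 ± 0.30, adjusted p = 0.159). The auxin-binding protein gene (LOC_Os12g34460), named after a maize protein, fell 4.69-fold at 11 °C, from 7.93 ± 0.329 to 1.69 ± 0.451 RPKM (-1.74 ± 0.24, adjusted p = 0.00071). Its 13 °C difference did not pass (-0.36 ± 0.24). AXR4 (LOC_Os11g34140), which in Arabidopsis is needed to place the uptake carrier AUX1 at the plasma membrane, had 2.78 ± 0.744, 1.00 ± 0.105 and 0.459 ± 0.300 RPKM and rose at 11 °C (1.38 ± 0.24, adjusted p = 0.002). It shares 673 bases with LOC_Os11g34130 on the opposite strand, which had 6.29 and 11.8 RPKM at 11 °C, 19.8 and 33.1 at 13 °C, versus 0.197 and 0.392 at 25 °C. Use of strand in the counting is not given, so reads of such overlaps cannot be told apart.

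The order of the libraries adds a view without a model. Both 13 °C libraries lay below the other 4 for 14 of 73 members (19.2%, against 13.4% of all loci tested). They are the auxin-repressed gene, 8 Aux/IAA genes (IAA1, IAA2, IAA6, IAA9, IAA10, IAA16, IAA18 and IAA20), GH3.2, GH3.3, ARF2, the ARF12 locus LOC_Os02g46710 and the 15A locus LOC_Os02g05050. They lay above the other 4 for 12 (16.4%, against 19.1%), of which ARF1, ARF8, ARF10, ARF15 and ARF25 are response factors. Both 11 °C libraries were above all others for 18 members (24.7%, against 21.7%) and below for 16 (21.9%, against 19.2%), the latter holding 5 of 6 hydrolases and 4 of 6 SAUR-type genes. Both 25 °C libraries were below all others for 21 (28.8%, against 29.2%), 11 of them ARFs, and above for 12 (16.4%, against 20.3%). The filter favoured the order of some members. IAA9, IAA20 and LOC_Os02g05050 (below at 13 °C and above at 25 °C) and IAA8 (above at 25 °C) reached 1 RPKM at 25 °C alone. ARF13 and LOC_Os05g10625, above at 11 °C, reached it at 11 °C alone. ARF13 is also among those below at 25 °C. The shares given are near those of all loci.

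Other genes of the auxin pathway, listed by words in the descriptions, also changed in both directions. Of 78 loci tested, 25 rose, 24 fell and 29 did not pass at 11 °C, and 24 rose, 18 fell and 36 did not pass at 13 °C. These are 62.8% and 53.8% called, beside 50% and 43.3% of all loci. The share of rises among the 13 °C calls, 57.1%, was 46.0% under median-ratio and 40.0% under quantile scaling. The 42 calls at 13 °C became 26 when the second 13 °C library was left out, and 27 when the first 25 °C library was. Between the cold groups, 17 were higher at 11 °C, 15 lower and 46 not passed (41.0% called, beside 35.4%). Of the 4 TIR1-type receptor loci, 3 rose at 11 °C. LOC_Os11g31620 had 31.0 and 43.7 RPKM at 11 °C, 8.52 and 10.9 at 13 °C, versus 11.2 and 16.6 at 25 °C (1.37, adjusted p = 0.00488). LOC_Os03g08850 rose at both (1.35 and 2.17, adjusted p = 0.00554 and 0.000687), LOC_Os05g05800 at 11 °C (1.06, adjusted p = 0.0141), and LOC_Os04g32460 fell at 13 °C (-0.82, adjusted p = 0.0128). The call of LOC_Os05g05800 was lost without replicate 2 at 11 °C (adjusted p = 0.0804) or replicate 1 at 25 °C (0.0773). That of LOC_Os04g32460 was lost without either 13 °C library (0.0847 and 0.0574) or replicate 1 at 25 °C (0.0529). Of 4 TOPLESS-related corepressor loci, LOC_Os08g06480 rose at both (1.09 and 1.51, adjusted p = 0.00874 and 0.0022), the former not without replicate 2 at 11 °C (0.0705), and 3 passed in no comparison.

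Of 12 tryptophan synthesis loci, 4 rose, 3 fell and 5 did not pass at 11 °C. At 13 °C, 2 rose, 2 fell and 8 did not pass. Over all loci, 28.6% rose and 21.4% fell at 11 °C, and 26.3% and 17% at 13 °C. Leaving out some single libraries ended the rises of LOC_Os08g23150 at both temperatures and that of LOC_Os04g38950 at 13 °C. The fall of LOC_Os02g03850 at 11 °C was ended in the same way. The tryptophan aminotransferase gene LOC_Os01g52010, of the family that makes indole-3-pyruvate, rose from 11.0 RPKM at 25 °C to 76.7 at 11 °C and 31.8 at 13 °C (2.70 and 1.45, adjusted p = 4.46e-05 and 0.000809). The other locus of that family, LOC_Os01g07500, did not pass at 11 °C (0.52) and rose at 13 °C (1.06, adjusted p = 0.0135), a call lost without replicate 2 at 13 °C (adjusted p = 0.1004) or replicate 1 at 25 °C (0.0757). YUCCA monooxygenases, which turn that product into IAA, were near the filter. Of 5, 1 rose and 3 fell at 11 °C, and 2 rose and 2 fell at 13 °C. LOC_Os05g45240 had 31 reads in each 13 °C library and at most 2 elsewhere. It reached 1 RPKM at 13 °C alone, and LOC_Os07g25540 at 25 °C alone, so the filter favoured their differences. The 11 °C calls of LOC_Os04g03980, LOC_Os01g12490 and LOC_Os01g16750 were lost on leaving out at least 1 library. That of LOC_Os01g12490 at 13 °C was lost as well. The gene for DAO (LOC_Os04g39980), which oxidises IAA, fell at both (-1.62 and -1.70, adjusted p = 0.00487 and 0.00455). Of 5 loci matching ABC transporters of the B family, whose Arabidopsis members 1 and 19 export auxin, the locus described as member 1 (LOC_Os08g45030) rose from 1.40 to 30.8 RPKM at 11 °C (3.74, adjusted p = 3.82e-05). There were 22 WAT1-related loci, named after a vacuolar auxin transporter of Arabidopsis. At 11 °C, 6 rose and 12 fell, beside 28.6% and 21.4% of all loci. At 13 °C, 8 rose and 6 fell, beside 26.3% and 17%. LOC_Os06g49500 had 126 and 143 RPKM at 11 °C and 12 to 15.2 in the other 4 libraries.

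The level filter left out 34 loci with the same words: 9 Aux/IAA, 8 SAUR-type, 5 transport, 5 GH3, 4 hydrolase, 1 ARF and 2 other loci. Just inside it, by their second highest library, were LOC_Os02g05050 (1.05 RPKM) and ARF13 (1.08). Just outside were IAA7 (LOC_Os02g13520, 0.818), LOC_Os06g48850 (described as 10A5, 0.807) and LOC_Os12g40774 (described as PIN2, 0.712). The 6 members that reached 1 RPKM in a single temperature group, ARF13 and LOC_Os05g10625 at 11 °C and IAA8, IAA9, IAA20 and LOC_Os02g05050 at 25 °C, had to differ between groups by that choice. The other 67 members had 20 rises and 15 falls at 11 °C, and 13 rises and 11 falls at 13 °C. LOC_Os12g40774 had 0.712 and 1.44 RPKM at 11 °C and was listed at 0 in both 25 °C libraries.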

How the data were processed

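RNA-seq libraries from 6 shoot samples were compared. TopHat2 2.0.12 was used, per the submitters' processing notes. The genome build, annotation, counter and strand setting were not given in the sources used here. The authors' deposited table gives RPKM per locus and library, and coordinates are printed as it gives them. From these values, log2(RPKM + 1) was fitted in limma 3.58.1 (R 4.3.3), with all 6 libraries in 1 model, a mean-variance trend and no further scaling, for loci reaching RPKM 1 in 2 or more libraries. The fit was tested on simulated data. Library totals were recovered from loci whose RPKM times span gives whole reads, and read numbers from the smallest length giving whole reads in all libraries. Of 23650 loci written in upper case, which are 0 in every replicate 2 library, 9 passed the filter; no member is among them. Alternatives were a pseudocount of 0.1, no filter, a filter of at least 4 libraries, median-ratio and quantile scaling, a replicate term, the 4 libraries compared, no trend, and leaving out each library. Members, lists and the naming rule (per comparison the 8 called members with the largest changes, plus the most abundant of each class, with the other members summarised) were chosen with earlier results of these data known. The literal match of the pathway words includes B-family transporters numbered 10 and 11. The labels call the replicates biological without saying what was replicated, so p-values measure the spread between these samples. The locus symbols come from the deposited descriptions. A single member is counted in the totals and is not reported here by itself.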

Additional observations from a re-analysis of the deposited data

Results flagged for a closer look

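For 2 SAUR-type genes the changes at the low temperatures, each against 25 °C, had opposite signs and both passed, and the direct test between 11 and 13 °C passed as well. LOC_Os03g45800 (described as 15A) was lower at 11 than at 13 °C by a log2 difference of -4.19, with -2.02 and 2.17 against 25 °C. LOC_Os09g37480 (described as 10A5) differed by -2.04 between 11 and 13 °C, with -1.14 (adjusted p = 0.017, limma) and 0.91 (adjusted p = 0.0466) against 25 °C. The 11 °C call of the latter was lost without replicate 1 at 11 °C (adjusted p = 0.111) or replicate 2 at 25 °C (0.101), and the 13 °C call without any single library of these groups (0.051 to 0.225). Groups of 2 libraries allow no check for a library apart from its group.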

How the results depend on the processing

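No named member changed sign with a call under any alternative run. Of 41, 28 and 37 member calls (11 against 25, 13 against 25, 11 against 13 °C), 20, 16 and 15 remained under all alternatives. A further 5, 4 and 1 remained wherever tested, but the filter of 4 libraries left them out. Leaving out each library gave 29 to 39, 22 to 28 and 21 to 38 called members, 35 to 48, 26 to 41 and 22 to 32 called pathway loci, and 7009 to 9227, 5949 to 7973 and 4109 to 6976 called loci in the whole table. Between 11 and 13 °C, the stricter filter called 21 pathway loci of 56 tested, fewer because fewer were tested. Libraries with the same replicate number deviated together (correlations of 0.61 to 0.713 between temperatures), but with 2 numbers this is a hint from the data, not the design. With the replicate block, 54, 42 and 47 members were called, and no member call was ended. The block added calls of ARFs that passed in no comparison reported above. Among these was a fall of ARF17 at 11 °C (adjusted p = 0.00372), which also passed under median-ratio (0.0126) and quantile scaling (0.0111). Between 11 and 13 °C the block called 11351 loci of the whole table, against 6884, and 52 pathway loci, against 32; the cause was not tested. Genes near the filter rest on few reads, so differences there were often not detectable at this depth.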
